A study of Mus musculus with 7 samples.

Results

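The genes described here are 10 AP-1 and immediate early genes: Jun, Junb, Jund, Fos, Fosb, Fosl1, Fosl2, Atf3, Egr1 and Ier2. The genes were chosen by name, as the AP-1 and early response genes, and the list was selected on 1 measured result: overlapping peaks of both proteins at Jund that stand near the top of the peak lists. The values at Jund are therefore given as a description. All 10 were found among 21887 protein-coding mouse genes. For each gene, every deposited β-catenin or Pygo2 peak whose centre lay inside the gene or within 50 kb of its nearer end was listed. A peak is a short stretch of genome that collected more sequenced fragments, called tags, in the precipitate than in a control.

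AP-1 is a family of dimeric transcription factors built from Jun, Fos and ATF proteins, which bind DNA through a basic leucine zipper. Immediate early genes are switched on within minutes of a growth factor or stress signal by factors already present in the cell, without new protein synthesis. Jun family proteins can pair with each other, whereas Fos proteins need a Jun partner to bind DNA. Jun and Fosl1 are also among the genes reported as responsive to Wnt signalling in other tissues, and β-catenin and Pygo2 are nuclear components of that pathway.

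ChIP-seq (chromatin immunoprecipitation and sequencing) was done on wild-type branchial arches, the embryonic swellings that give rise to parts of the face and neck, taken from mouse embryos at 10.5 days post coitum. The labels describe 7 libraries: Input-BA1, Input-BA2, IgG-BA1, b-cat-BA1, b-cat-BA2, Pygo2-BA1 and Pygo2-BA2. Tissue was pooled (about 200 arches), and what separates BA1 from BA2 is not stated. The lists used are those of b-cat-BA2 (1079 peaks, 13672937 tags in the library) and Pygo2-BA2 (7150 peaks, 15009636 tags), each called against IgG-BA1 per the file headers. Each list rests on 1 library, so no value below has a replicate error and none was tested. Both lists share the same control library. A peak had on average 14.6 tags for β-catenin and 15.5 for Pygo2, while the score column is 1 for every peak, so the strength of a single peak is unknown. Gene expression was not measured, and the tissue label could not be checked against marker genes.

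The 250 bases before the RefSeq start of 4 genes are shown first, because these genes cover the patterns found: Jund with peaks of both proteins inside the gene, Fos with a Pygo2 peak reaching into this stretch, Junb with Pygo2 peaks on both sides of the gene, and Jun with no peak in its window. They are read 5′ to 3′ on the strand of the gene, from RefSeq on GRCm38.p6 (the assembly of mm10). Jund lies at chr8:70697489-70697738 on the plus strand, Fos at chr12:85473640-85473889 on the plus strand, Junb at chr8:84978749-84978998 on the minus strand and Jun at chr4:95052223-95052472 on the minus strand. In Fos, capitals mark the part covered by the Pygo2 peak. In Jun and Junb they mark matches to a GC box (GGGCGG, here on the opposite strand) or a CCAAT box (CCAAT). Jund had no match to mark.
Jund: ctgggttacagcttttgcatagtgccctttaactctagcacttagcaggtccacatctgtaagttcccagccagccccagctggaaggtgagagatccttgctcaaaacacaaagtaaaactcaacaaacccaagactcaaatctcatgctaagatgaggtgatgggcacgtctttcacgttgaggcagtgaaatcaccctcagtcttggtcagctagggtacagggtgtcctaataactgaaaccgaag
Fos: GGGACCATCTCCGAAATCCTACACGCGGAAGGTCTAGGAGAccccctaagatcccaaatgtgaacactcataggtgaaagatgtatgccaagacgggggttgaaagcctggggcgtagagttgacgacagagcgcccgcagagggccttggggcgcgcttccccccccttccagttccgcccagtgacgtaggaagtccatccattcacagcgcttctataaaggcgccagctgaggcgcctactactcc
Junb: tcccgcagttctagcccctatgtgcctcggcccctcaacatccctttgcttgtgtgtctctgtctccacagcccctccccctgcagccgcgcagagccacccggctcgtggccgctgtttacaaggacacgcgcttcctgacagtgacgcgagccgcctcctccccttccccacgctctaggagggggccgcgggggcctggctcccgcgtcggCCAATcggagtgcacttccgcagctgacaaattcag
Jun: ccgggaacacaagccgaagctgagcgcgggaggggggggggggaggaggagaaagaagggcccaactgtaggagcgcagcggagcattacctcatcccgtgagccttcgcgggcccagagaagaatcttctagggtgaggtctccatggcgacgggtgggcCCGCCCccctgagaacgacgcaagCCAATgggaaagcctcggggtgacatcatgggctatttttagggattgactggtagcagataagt

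RefSeq promoter windows, from 250 bases before to 50 bases after a start, were found for 7 of the 10 genes, the exceptions being Fosl1, Egr1 and Ier2. The Fos window was the only one of the 7 that a peak touched, with 41 bases inside the Pygo2 peak. The Jund window stood apart in base composition: 46.7% of its bases were G or C and it held 3 CpG dinucleotides, while the other 6 windows ranged from 58.7% (Fos) to 68.3% (Fosb) and from 15 (Jun) to 32 CpG (Fosl2). Over 32817 RefSeq windows of the same length the medians were 52.7% and 7 CpG. RefSeq lists 2 transcripts for Jund, and 1 window was available, at the outermost start. The Jund base composition and the lack of a peak there hold for that window alone.

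The 7 windows were searched on both strands for 10 motifs. No match was found for the TPA response element of AP-1 (TGACTCA, in 5.2% of all windows), the cyclic AMP response element (TGACGTCA, 1.79%), the CArG box of serum response factor (1.63%), the TCF/LEF sequences CTTTGAT (3.73%) and CTTTGAA (5.14%), the ETS sequence CCGGAAG (8.86%) or the EGR sequence GCGTGGGCG (0.612%). GC boxes occurred in 5 of the 7 windows (Jun, Fos, Fosb, Fosl2 and Atf3), against 35.6% of all windows, with 5 matches in Atf3 and 3 in Fosb. A TATA box (TATAAA, 13.6% of all windows) began 33 bases before the start of Fos and at base 1 of Junb. CCAAT (37.4% of all windows) was found in Jun, Junb and Atf3. Overlapping matches of one motif were each counted, as with the close GC boxes of Atf3. These are exact matches of letters only. A site that differs by 1 base was not counted, such as TGACATCA in the Jun stretch printed above.

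Across the 10 genes, Pygo2 peaks were found around 6 and β-catenin peaks around 3. Pygo2 peaks lay in the windows of Junb, Jund, Fos, Fosb, Fosl1 and Ier2, which is 60.0% of the genes against 46.5% of all protein-coding genes. β-catenin peaks lay in the windows of Jund, Fosb and Fosl1, 30.0% against 11.2%. The same 3 genes had peaks of both lists (9.23% of all genes) and an overlapping pair of peaks (at least 1 bp in common, 4.05% of all genes). Jun, Fosl2, Atf3 and Egr1 had no peak of either list in the window. The β-catenin share rests on 3 genes, 1 of which is the gene for which the list was drawn up. Jund counts toward the Pygo2 share as well. Without Jund, 5 of 9 genes (55.6%) had a Pygo2 peak. Of the same 9 genes, 2 (22.2%) had a β-catenin peak, and the same 2 an overlapping pair.

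**Figure D1:**
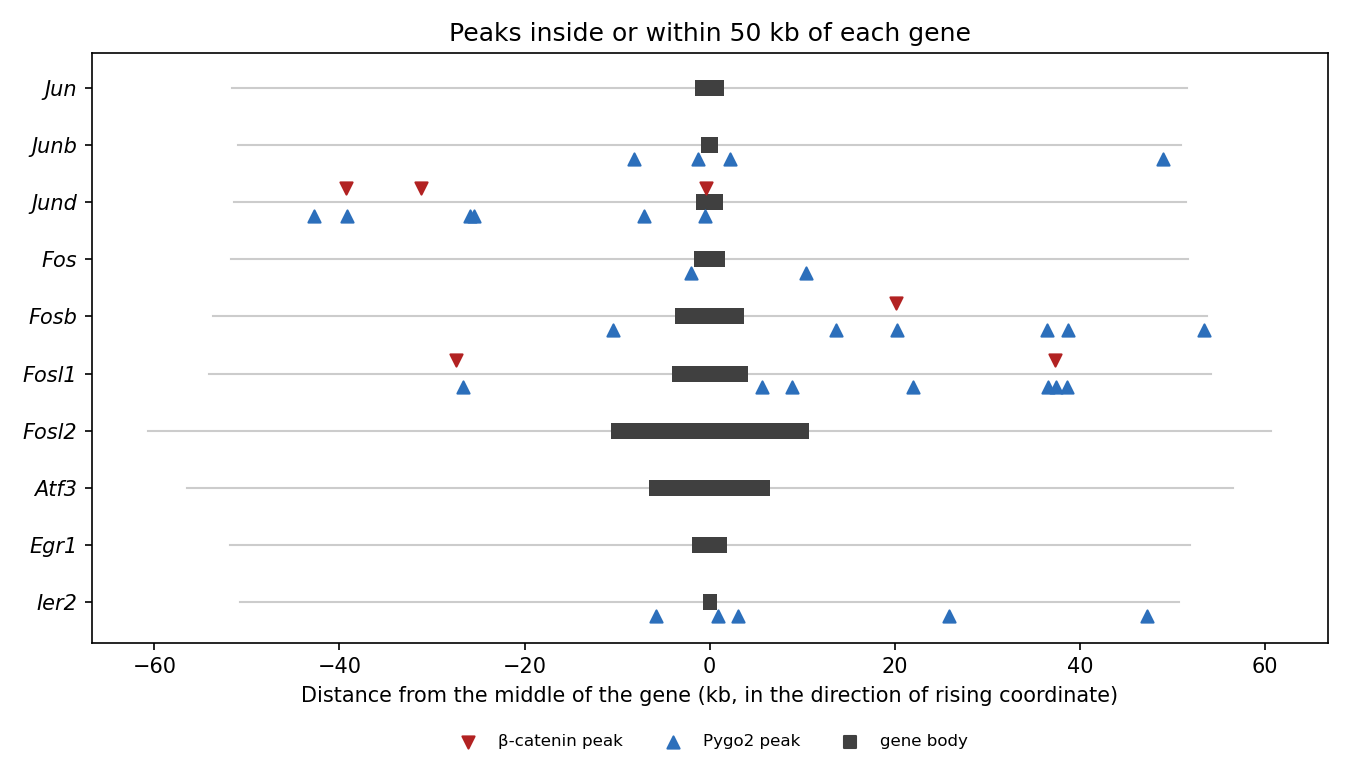
Peaks of β-catenin (downward triangles) and Pygo2 (upward triangles) around each of the 10 genes, with distance from the middle of the gene in kb in the direction of rising coordinate; dark bars are gene bodies and grey lines the windows. Jund, Fosb and Fosl1 have peaks of both lists, while Jun, Fosl2, Atf3 and Egr1 have none.

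The windows held 30 Pygo2 peaks and 6 β-catenin peaks, and no peak fell into the windows of more than 1 of the genes. Most were nearer to another protein-coding gene: the listed gene was the nearest one for 11 of the 30 Pygo2 peaks and for 2 of the 6 β-catenin peaks. When a peak was counted for its closest gene alone, 5 of the 10 genes kept a Pygo2 peak (23.5% of all genes did). By the same rule 2 kept a β-catenin peak, Jund and Fosb (4.07% of all genes). Fosl1 was the gene that lost all its peaks by this rule. Inside the gene or within 1 kb of it, 4 of the 10 had a Pygo2 peak (Junb, Jund, Fos and Ier2, against 22.9% of all genes). Jund alone had a β-catenin peak (3.61% of all genes) and an overlapping pair (1.11% of all genes) there. The list was selected on that Jund pair, so these Jund counts are a description and cannot be read against the shares. None of the other genes had a β-catenin peak that close.

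Among the Jun family, Jund, which encodes the broadly expressed member JunD, carried peaks of both proteins inside the gene. Jund spans chr8:70697739-70700616 and is 2878 bp long. Its Pygo2 peak at chr8:70698604-70698770 was centred 0.948 kb after the RefSeq start and was number 9 of 7150 in the list. The β-catenin peak at chr8:70698741-70698909 was centred 1.09 kb after the start and was number 90 of 1079. The 2 peaks shared 30 bp and their centres were 138 bp apart. All β-catenin peaks are 169 bp wide and all Pygo2 peaks 167 bp. Overlaps and gaps, here and below, therefore reflect only the distance between centres. With 1 library per list the precision of a centre is unknown, so whether the 2 proteins bind the same site cannot be told. Position in the list is the row number as deposited. The headers do not state the order, so it is not a measure of strength.

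Upstream of Jund lay 5 further Pygo2 peaks and 2 further β-catenin peaks. The Pygo2 peak at chr8:70691972-70692138, 5.68 kb before Jund, was the only one of these with Jund as its nearest protein-coding gene, and it lay inside the long non-coding RNA gene Gm39191. A pair of Pygo2 peaks at 24.0 and 24.5 kb sat inside Lsm4, which encodes a protein of the U6 spliceosomal RNA particle. Inside Pgpep1, a peptidase gene, a β-catenin peak at chr8:70659778-70659946 and a Pygo2 peak at chr8:70659952-70660118 were separated by 5 bp, so they did not count as overlapping. The third β-catenin peak, at chr8:70667913-70668081, lay 5.23 kb from Lsm4 and 5.25 kb from the nearest Pygo2 peak, centre to centre. No peak of either list lay between the end of Jund and 50 kb beyond it.

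Junb, which encodes a Jun protein induced by growth factors, had Pygo2 peaks on both sides and no β-catenin peak. The gene spans chr8:84976909-84978748 on the minus strand. A Pygo2 peak at chr8:84979905-84980071 was centred 1.24 kb upstream of the start and was number 302 in the list. The other, at chr8:84976532-84976698, was centred 0.294 kb beyond the 3′ end and was number 100. The remaining pair in the window lay at other genes, 15 bp from Trir and 11 bp from Prdx2, an antioxidant enzyme gene. The nearest β-catenin peak to Junb was 102 kb away. Jun itself, at chr4:95049036-95052222, had no peak of either list in its window: the nearest Pygo2 peak was 266 kb and the nearest β-catenin peak 844 kb away.

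In the Fos family, Fos had Pygo2 peaks of its own, Fosb an overlapping pair at a distance, Fosl1 peaks that all lay nearer to other genes, and Fosl2 none. Fos, the founding member of the family, spans chr12:85473890-85477274. Its Pygo2 peak at chr12:85473514-85473680, whose last 41 bases are in capitals in the sequence above, was centred 0.293 kb before the start and was number 2446 of 7150. Another Pygo2 peak at chr12:85485936-85486102 lay 8.74 kb beyond the 3′ end and was number 1046. No β-catenin peak lay nearer to Fos than 1.34 Mb.

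Fosb, which encodes a Fos protein best known from activated neurons, spans chr7:19302696-19310118 on the minus strand. Upstream of it, a β-catenin peak at chr7:19326492-19326660 and a Pygo2 peak at chr7:19326549-19326715 shared 112 bp, with centres 56 bp apart. This was the closest pair among the 10 genes. It lay 16.5 kb from the gene with Fosb as the nearest gene of any kind in the annotation, and its peaks were number 325 of 1079 and 1160 of 7150. Another Pygo2 peak, 9.99 kb upstream, also had Fosb as its nearest gene. The other 4 Pygo2 peaks lay in or near Ercc1, a DNA repair gene (35.0 kb and 32.7 kb from Fosb), inside Ppp1r13l (49.7 kb) and inside Rtn2 (6.75 kb, on the 3′ side). No peak lay inside Fosb or within 1 kb of it.

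Fosl1 encodes Fra-1 and spans chr19:5447698-5455938. Its window held 7 Pygo2 peaks, the most among the 10 genes, and 2 β-catenin peaks. The overlapping pair, a β-catenin peak at chr19:5489049-5489217 and a Pygo2 peak at chr19:5489151-5489317, shared 67 bp and lay 33.2 and 33.3 kb from Fosl1 and 744 and 845 bp from Mus81, a DNA repair endonuclease gene. These peaks were number 83 of 1079 and 38 of 7150. Further Pygo2 peaks flanked the pair, 1 inside Mus81 and 1 at 26 bp from Cfl1, the gene for the actin-severing protein cofilin. The Pygo2 peak nearest to Fosl1 was 1.5 kb from its end but inside the neighbouring gene Ccdc85b, and others lay inside Fibp and at 170 bp from Efemp2, a gene for an elastic fibre protein. On the other side, a β-catenin peak inside Drap1, a transcriptional corepressor gene, and a Pygo2 peak 28 bp from AI837181 had centres 675 bp apart. Fosl2, which encodes Fra-2 and lies at chr5:32136472-32157840, had no peak in its window, with the nearest Pygo2 peak 301 kb and the nearest β-catenin peak 1.09 Mb away.

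**Figure D2:**
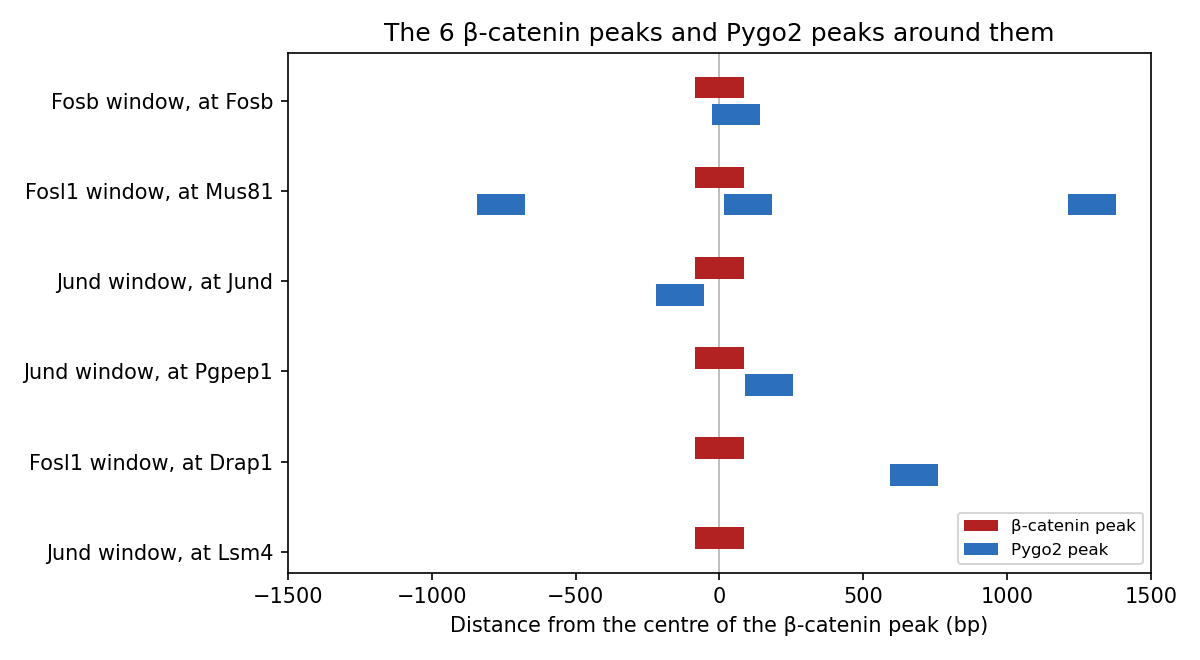
The 6 β-catenin peaks (upper bars) and the Pygo2 peaks of the same windows (lower bars), drawn to scale against distance in bp from the centre of the β-catenin peak, each labelled with the window and the nearest gene. The pairs at Fosb, Mus81 and Jund overlap by 112, 67 and 30 bp, the Pgpep1 pair is separated by 5 bp, and the Lsm4 peak has no Pygo2 peak in view.

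Within these windows, 3 of the 6 β-catenin peaks (Jund, Fosb and Mus81) overlapped a Pygo2 peak, as did 273 of the 1079 in the whole list (25.3%). Seen from the other list, 3 of the 30 Pygo2 peaks overlapped a β-catenin peak, compared with 273 of 7150 (3.82%). These counts include the Jund pair, on which the list was selected. Without the Jund window, 2 of 3 β-catenin peaks and 2 of 24 Pygo2 peaks overlapped the other list, numbers too small to read against the whole lists. When at least 50% of the shorter peak had to be shared, the Fosb pair was the only one that remained. The Jund pair, with 30 bp in common, and the Mus81 pair did not meet that stricter rule. The share of all pairs that meets it is not given here, so this count has no background.

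Atf3, which encodes a stress-induced partner of Jun proteins, spans chr1:191170296-191183333 and had no peak in its window. Its nearest Pygo2 peak was 129 kb and its nearest β-catenin peak 392 kb away. Egr1, a zinc finger transcription factor gene that serves as a marker of growth factor signalling, spans chr18:34861207-34864956 and had none either. The nearest peaks to Egr1 were closer than those to Atf3, a β-catenin peak at 67.3 kb (263 bp from Etf1) and a Pygo2 peak at 89.5 kb.

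Ier2, an immediate early gene for a small nuclear protein, had 5 Pygo2 peaks and no β-catenin peak. It spans chr8:84661331-84662852, on the same chromosome as Junb and Jund. Of its 5 peaks, 3 had Ier2 as their nearest gene: one at chr8:84662936-84663102, centred 167 bp beyond the higher end of the gene and number 301 in the list, one 2.29 kb beyond the same end and one 5.05 kb beyond the lower end. The other peaks were inside Trmt1, a tRNA methyltransferase gene, and inside Nfix, a transcription factor gene, 25.1 and 46.5 kb away. The nearest β-catenin peak to Ier2 was 418 kb away. Ier2 had more Pygo2 peaks with itself as the nearest gene than any other of the 10, with 2 each at Junb, Jund, Fos and Fosb.

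The 50 kb limit decided a few peaks. Just inside it lay the Pygo2 peak in Ppp1r13l (49.7 kb from Fosb) and the one at Trir (48.0 kb from Junb). Just outside lay a Pygo2 peak in Pgpep1 at 50.4 kb from Jund, another in Ppp1r13l at 50.9 kb from Fosb, and a β-catenin peak 53.1 kb from Jund near Rab3a.

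Pygo2 peaks in the windows stood early in the list. Their positions ran from 0.126% of the list (Jund) to 92.7% (near Fosl1), with a median of 12.6%, and 28 of the 30 were in the first 50% of the list. Over the 6674 Pygo2 peaks within 50 kb of any protein-coding gene, the median was 47.8% and 52.2% were in the first 50%. The earliest peak, at Jund, is the one by which the genes were chosen, and the pooled values include all 6 Pygo2 peaks of the Jund window. Of the 30 peaks, 19 had another gene as the nearest, among them all 7 around Fosl1. For the genes other than Jund, the median position was 4.56% at Junb, 12.2% at Ier2, 13.1% at Fosl1, 15.0% at Fosb and 24.4% at Fos. The 6 β-catenin peaks ran from 7.69% to 90.5% of their list, with a median of 40.9% against 50% for all those near genes. The β-catenin peaks of the overlapping pairs stood at 8.34% (Jund), 7.69% (Mus81) and 30.1% (Fosb).

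**Figure D3:**
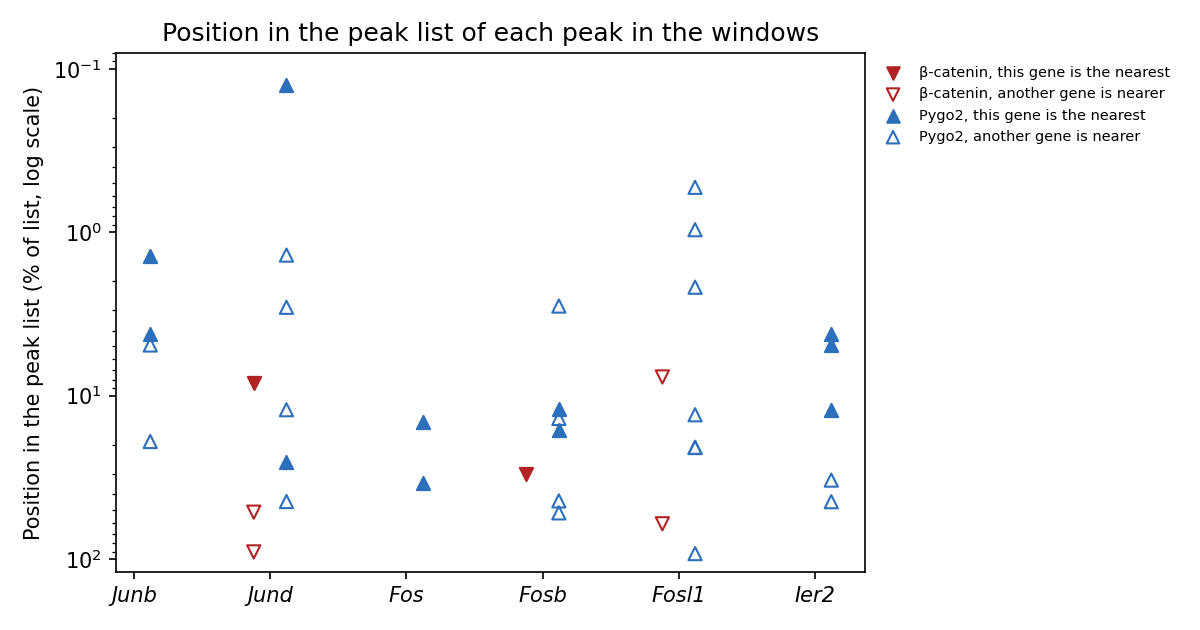
Position of each peak in its deposited list (percent of the list, log scale, earliest at the top) for the 6 genes with peaks; filled symbols have the named gene as nearest protein-coding gene, open symbols another gene. The Pygo2 peak at Jund is the earliest at 0.126%, and all 7 Pygo2 peaks around Fosl1 are open.

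The genes with at least 5 neighbouring genes had more Pygo2 peaks than those with fewer. Jun, Fos and Fosl2 had no other protein-coding gene in the window, Atf3 had 1 and Egr1 had 3. Ier2 and Jund had 5 each, Fosb 7, Junb 8 and Fosl1 11, against a median of 3 over all genes. All 5 genes with at least 5 neighbours had a Pygo2 peak, and so did 69.8% of the 4940 protein-coding genes with that many neighbours. Of the 5 genes with fewer, Fos alone had one. Among all genes, the share was 43.3% with 1 to 4 neighbours and 19.3% with none. For β-catenin the shares were 21.5% with at least 5 neighbours, 8.74% with 1 to 4 and 4.79% with none, and the 3 genes with a β-catenin peak were all in the densest class. The part of gene density in these counts was not tested. Fos had 2 Pygo2 peaks with no other gene in its window. Within the densest class, Junb with 8 neighbours had 4 Pygo2 peaks, while Jund and Ier2 with 5 had 6 and 5. Junb and Ier2 had no β-catenin peak, and Jund had 3.

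**Figure D4:**
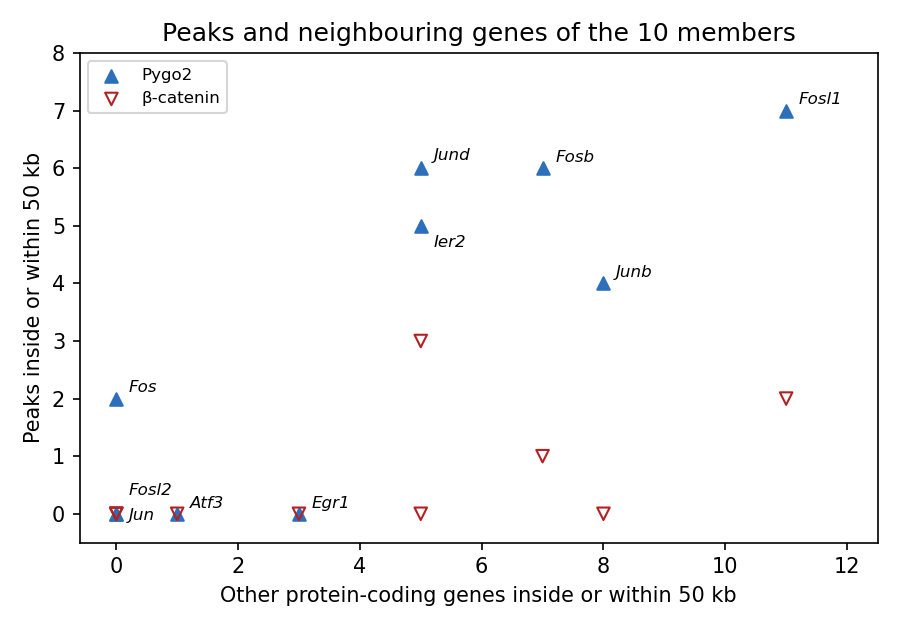
Number of Pygo2 peaks (filled) and β-catenin peaks (open) in the window of each of the 10 genes against the number of other protein-coding genes there; names stand beside the Pygo2 symbols. Genes with at least 5 neighbours have 4 to 7 Pygo2 peaks, those with up to 3 neighbours have none except Fos with 2.

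By number, 5 of the 10 genes had at least 4 Pygo2 peaks in the window, as had 6.98% of all protein-coding genes. The 5 include Jund, with 6 Pygo2 peaks, on which the list was selected. All 5 are in the class with at least 5 neighbours, where the median over all genes is 2 Pygo2 peaks. The share of genes with at least 4 peaks within that class is not given here, so the count cannot be read against it. Over the 10 genes the median was 3 Pygo2 peaks per gene against 0 over all genes. For β-catenin the median was 0 in both.

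A further 58 genes of the same pathways were examined for comparison: 13 dimer partners and relatives of AP-1 proteins, 17 upstream kinases and transcription factors, and 28 other immediate early genes. Pygo2 peaks lay inside or within 50 kb of 38 of the 58 (65.5%, against the 46.5% of all genes), namely 9 of the 13 partners, 10 of the 17 upstream genes and 19 of the 28 immediate early genes. Inside or within 1 kb, the count was 23 of 58 (39.7%, against 22.9% of all genes). Among those with a Pygo2 peak close to a gene end were Ccn2, a matricellular protein gene (21 bp), Creb1, which encodes the factor of the cyclic AMP response element (88 bp), and the p38 kinase gene Mapk14 (137 bp, with the peak inside the neighbouring gene Slc26a8).

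β-catenin peaks lay within 50 kb of 10 of these 58 genes (17.2%, against 11.2% of all genes), 8 of them other immediate early genes, with 1 partner (Nfe2l1) and 1 upstream gene (Map2k1). For 9 of the 10, or 15.5% of the 58 against 9.23% of all genes, the window held Pygo2 peaks as well: Nfe2l1, Map2k1, Egr3, Ier3, Ier5l, Nr4a1, Btg2, Zfp36 and Sgk1. Ccn1 had a β-catenin peak and no Pygo2 peak. Overlapping pairs occurred at 2 of the 58 genes, Zfp36 and Ier5l, a share of 3.45% that is not above the 4.05% of all genes. At Zfp36, which encodes an RNA-binding protein that destabilises cytokine transcripts, the β-catenin peak at chr7:28375604-28375772 and the Pygo2 peak at chr7:28375538-28375704 shared 101 bp, 1.1 kb beyond the 3′ end of the gene. A second β-catenin peak stood 284 bp before its start. The pair in the Ier5l window shared 109 bp but lay inside Ptpa, 30.7 kb from Ier5l.

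**Figure D5:**
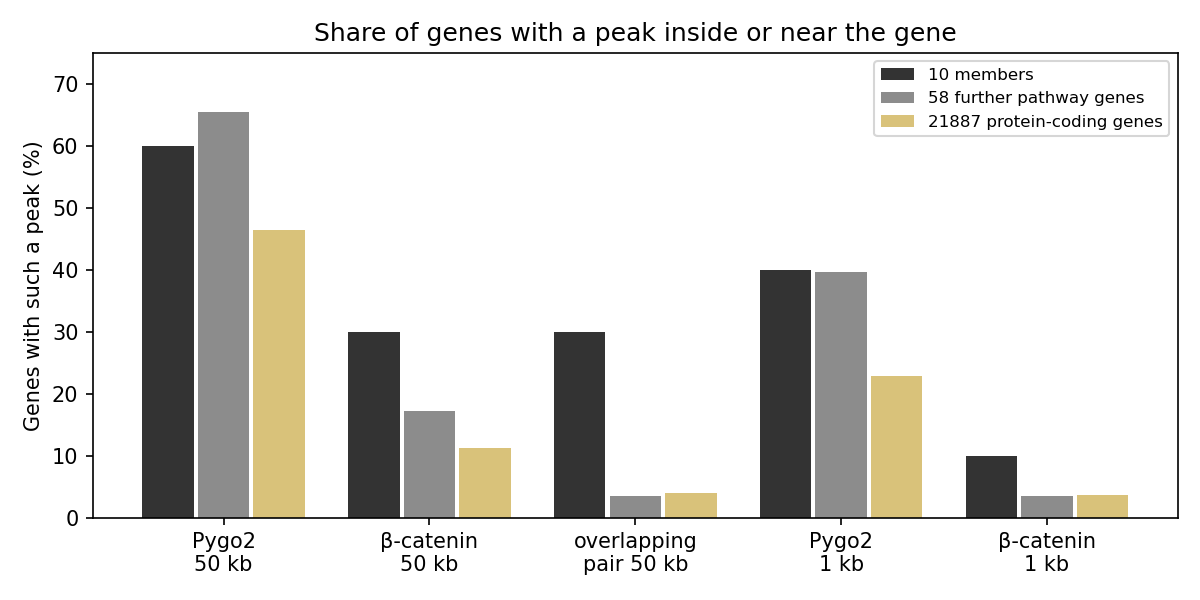
Percent of the 10 genes, of the 58 further pathway genes and of all 21887 protein-coding genes with a peak inside or within the stated distance of the gene. Pygo2 peaks within 50 kb are at 60.0% of the 10 genes (55.6% without Jund) and 65.5% of the 58. Overlapping pairs are at 30.0% of the 10 (22.2% without Jund, whose pair prompted the list), 3.45% of the 58 and 4.05% of all genes.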

How the data were processed

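The ChIP-seq material was branchial arch tissue of 10.5 days post coitum. Cells were, per the labels' protocols, cross-linked for 40 min with 1.5 mM EGS, with 1% formaldehyde for the last 20 min, and chromatin was sheared for 8 min. The authors called peaks with HOMER findPeaks in factor style against IgG-BA1, per the file headers, at a false discovery rate of 0.001 (at least 11 tags for β-catenin, 10 for Pygo2), at least 2-fold over control and over the surrounding 10 kb, with a Poisson p-value of 1e-04 in each comparison, from 1 library per list without pooling. Bowtie, Bowtie2, HOMER and mm10 are named in the submitters' processing notes, without versions. The deposited score is 1 for every peak and was not used further. The deposited names of the lists mention BA2 together with IgG, and the headers were followed.

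Genes were the 21887 protein-coding entries of a RefSeq table of GRCm38.p6, without the mitochondrial genome. All 10 genes and all 58 further genes matched by symbol. Start sites and strands came from RefSeq promoter windows, and exons, introns and UTRs were not told apart. Distance was measured from the peak centre to the gene, 0 inside it, with coordinates 1-based. The text names all 10 genes, the nearest genes of peaks in their windows, and of the 58 those with peaks of both lists and the 5 with a Pygo2 peak closest to a gene end. Some of these 5 are not reported here. Other genes beside these, such as Ccn1, Rab3a and Etf1, were named after their values were seen. The members and lists were chosen with earlier results of these data known, so counts stand beside the share of all genes and no test was made. Alternatives were other windows, nearest gene only, start sites, the first 50% of each list, peak edges and other overlap rules, and counts without Jund, added after the data were seen. The assignment and overlap steps were checked on simulated positions. Python 3.11.15, NumPy 2.4.6, pandas 2.3.3 and Matplotlib 3.10.9 were used.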

Additional observations from a re-analysis of the deposited data

How the results depend on the processing

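No paired analysis was possible because each list comes from 1 library and no groups were tested. The count of genes with a Pygo2 peak was 4 to 7 under the 8 alternatives, against 6. Over all protein-coding genes, the share with a Pygo2 peak ran from 23.5% (nearest gene only) to 57.6% (100 kb), against 46.5%. With windows of 5 kb and of 10 kb, the counts of genes with a β-catenin peak and with peaks of both lists each fell to 1. So did the count with an overlapping pair. That gene was Jund, on which the list was selected. Under the other window and assignment choices these counts were 2 to 4, against 3. Over all genes, the share with a β-catenin peak was 4.54% at 5 kb, 5.46% at 10 kb, 7.84% at 25 kb and 17.2% at 100 kb, against 11.2%. It was 4.07% with nearest genes only, 7.61% from start sites and 6.43% in the first 50% of the list. Sharing 50% of the shorter peak left 1 gene with an overlapping pair (Fosb). For peaks of both lists and for overlapping pairs, the shares over all genes under these alternatives are not given here. Those counts therefore have no background. β-catenin peaks numbered 1 at 5 kb and 10 kb, 3 at 25 kb, 2 with nearest genes only and 3 in the first 50% of the list, against 6. Pygo2 peaks numbered 8, 14, 19 and 51 at 5, 10, 25 and 100 kb, 11 with nearest genes only and 18 from start sites, against 30. Start sites were known for 7 of the 10 genes, which by construction lowers that count. For the 58 further genes, whose alternatives were added after the data were seen, the β-catenin count was 3 at 5 kb and 10 kb, 6 at 25 kb, 4 with nearest genes only and 5 in the first 50% of the list, against 10. Their Pygo2 count was 26 to 43, against 38. The narrower windows and shorter lists admit fewer peaks by construction. With 1 library per protein and a mean near 15.5 tags per Pygo2 peak and 14.6 per β-catenin peak, a missing peak means that none passed the authors' thresholds.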

Other observations

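At 2 of the 58 further genes, peaks of both proteins lay side by side without overlapping. In the window of Ier3, a stress-induced early gene, a β-catenin peak at chr17:35838553-35838721 and a Pygo2 peak at chr17:35838359-35838525 were separated by 27 bp. They lay 0.336 and 0.141 kb from Tubb5, a β-tubulin gene, and 15.7 and 15.5 kb from Ier3. Inside Sgk1, a serum-inducible kinase gene at chr10:21882184-21999903, the peaks of the 2 proteins were separated by 68 bp, and each centre lay within 300 bp of one of the RefSeq starts of the gene, not the same start for both. Both stood late in their lists, at 74.2% and 74.3%. Egr3, a relative of Egr1, had a β-catenin peak 2.33 kb from the gene, with the nearest Pygo2 peak 33.8 kb from that peak. These genes were picked after their values were seen.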
